A study of Mus musculus with 87 samples.

Results

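The 10 genes described here, Col1a1, Col1a2, Col3a1, Col4a1, Col4a2, Acta2, Des, Pdgfrb, Timp1 and Lox, encode the main collagens and a set of contractile, receptor and matrix-regulating proteins of hepatic stellate cells. They were taken by name from a table of 37991 genes, of which 15396 were detected. All 10 were present and all 10 were detected. RNA was sequenced from whole livers of C57BL/6 male mice aged 12 to 14 weeks, and 80 livers in 19 groups were used. In the X groups most of the liver was removed by partial hepatectomy (PH), and the remnant was taken between 1 h and 4 weeks later, with the hours named in the group (X1, X4, X10, X20, X28, X36, X44, X48, X72) and W for weeks (X1W, X4W). In the S groups the abdomen was opened and closed without resection (sham), and livers were taken at the hours named likewise (S1, S4, S10, S20, S48). The C groups were not operated on: C0 was taken at the hour of day when surgery began (ZT2), C4 4 h later, and C4W 4 weeks later, beside X4W. All mice were wild type and had been entrained to a light and dark cycle with food given at night. Each library was 1 liver. Groups held 9 livers (C0), 6 (S1, X1, X10, X20, X36), 5 (S4, X48), 3 (C4, S10, S20, S48, X4, X28, X44, X72, X1W) or 2 (C4W, X4W).

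Hepatic stellate cells lie between hepatocytes and the sinusoidal endothelium. At rest they store vitamin A, and after injury they can turn into contractile, matrix-producing myofibroblasts that express smooth muscle actin (Acta2). Fibrillar collagens (types I and III) form the fibres of scar and stroma, whereas type IV collagen forms the mesh of basement membranes and is also made by endothelial cells. Collagen chains are cross-linked outside the cell by lysyl oxidase (Lox), and their breakdown is restrained by tissue inhibitors of metalloproteinases such as Timp1.

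Values are RPKM (reads scaled to exon length and library size). Depth, estimated by taking the commonest low value of RPKM times exon length as 1 read, was 12.2 to 49.0 M reads per library. The estimate fitted X28 replicate 2 least, where 37.0% of low values came out as whole reads. Tests were made with limma on log2(RPKM + 0.25), which understates the change of low genes. A gene was called where its adjusted p, over all 15396 genes, was below 0.05 and its log2 difference was beyond 0.5. The tissue showed the markers of liver: summed RPKM of 9 hepatocyte markers in X36, for example, was 31360 to 53700. Of 14 markers of resting stellate cells, 13 were detected (Gfap was not), and skeletal muscle markers other than Mylpf were at or near 0. In whole liver, fewer cells of a type and less RNA per cell cannot be told apart. One library stood apart for these genes, X36 replicate 2, and results at 36 h are given with and without it. Mice were operated on 3 at a time over several periods; which replicate belongs to which period was not given, and X48 and S48 shared a period.

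On the mm9 assembly, to which the reads were aligned, Col1a1 lies at chr11:94797538-94814356 (plus strand), Col1a2 at chr6:4454814-4491543 (plus) and Col3a1 at chr1:45368383-45406551 (plus). Col4a1 (chr8:11198423-11312826, minus) and Col4a2 (chr8:11312805-11449287, plus) are transcribed away from each other from one shared control region. Des lies at chr1:75356904-75365154 (plus), Acta2 at chr19:34315580-34329826 (minus) and Timp1 at chrX:20447292-20451861 (plus).

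The 250 bases upstream of the start are shown for Col1a2, Col3a1 and Timp1, since these are 3 of the 4 members whose gap between PH and sham widened from 10 to 48 h. They are RefSeq sequences on GRCm38.p6, at chr6:4505368-4505617, chr1:45311288-45311537 and chrX:20869916-20870165, each 5′ to 3′ on the plus strand. Windows were matched by symbol for 7 of the 10 members. Capitals mark a match, on either strand, to 1 of 4 motifs that were searched: the letters TATAAA of the TATA box, the letters CCAAT of the CCAAT box, the letters GGGCGG of the GC box, or the letters TGANTCA of the AP-1 motif. They do not overlap one another here.
Col1a2: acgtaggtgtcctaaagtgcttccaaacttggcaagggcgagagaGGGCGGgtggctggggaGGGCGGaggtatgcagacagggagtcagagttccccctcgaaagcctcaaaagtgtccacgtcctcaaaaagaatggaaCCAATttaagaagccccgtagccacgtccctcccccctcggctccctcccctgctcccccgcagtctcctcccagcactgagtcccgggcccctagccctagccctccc
Col3a1: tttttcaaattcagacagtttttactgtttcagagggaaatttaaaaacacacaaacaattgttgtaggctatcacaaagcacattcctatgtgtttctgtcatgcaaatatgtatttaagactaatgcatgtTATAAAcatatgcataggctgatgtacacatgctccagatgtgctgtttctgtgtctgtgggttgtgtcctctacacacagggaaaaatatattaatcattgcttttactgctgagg
Timp1: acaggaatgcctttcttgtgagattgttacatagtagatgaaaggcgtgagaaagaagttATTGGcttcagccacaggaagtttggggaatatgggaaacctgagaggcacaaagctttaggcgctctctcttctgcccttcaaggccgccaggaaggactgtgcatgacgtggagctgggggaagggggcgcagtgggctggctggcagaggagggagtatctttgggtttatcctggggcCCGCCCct
The Col1a2 window held 2 GC boxes and a CCAAT box, the Col3a1 window held a TATA box sequence at −117 to −112, and the Timp1 window held a CCAAT box and a GC box, both on the other strand. No member's window held the AP-1 motif, and Acta2's held none of the 4 motifs. Among 32851 promoter windows, 12.4% held the TATA box letters, 33.8% those of the CCAAT box, 32.7% those of the GC box and 6.75% those of the AP-1 motif, and a match is a description only. The Col4a1 and Col4a2 transcripts start so close together that they overlap by 22 bases, at chr8:11312805-11312826 (GRCm38.p6, plus strand), shown because both genes' courses are compared later; it holds 1 GC box.
Col4a1 and Col4a2 overlap: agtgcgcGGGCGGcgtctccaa

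In resting livers (C0, n = 9) the basement membrane and type III collagens were the highest members. Mean RPKM ± SD was 3.67 ± 0.91 for Col4a1, 3.18 ± 0.74 for Col3a1 and 2.44 ± 0.48 for Col4a2. The middle of the order was held by Pdgfrb (1.44 ± 0.42), Acta2 (1.18 ± 0.64), Col1a1 (1.12 ± 0.38), Des (1.03 ± 0.38) and Col1a2 (0.921 ± 0.212), whose livers overlapped. Lox (0.0921 ± 0.0519) and Timp1 (0.0632 ± 0.0555) were at the bottom. Their counts were small, with 3 to 22 estimated reads of Lox and 0 to 5 of Timp1 per C0 library, and 2 of 9 libraries had no Timp1 read. In unoperated livers taken at a later hour of day (C4 against C0), 1 member was called (Pdgfrb, log2 difference 0.54, limma adjusted p = 0.049), where 7.89% of all genes were called. That call was lost without the replicates numbered 1, 2, 3, 4 or 6.

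**Figure D1:**
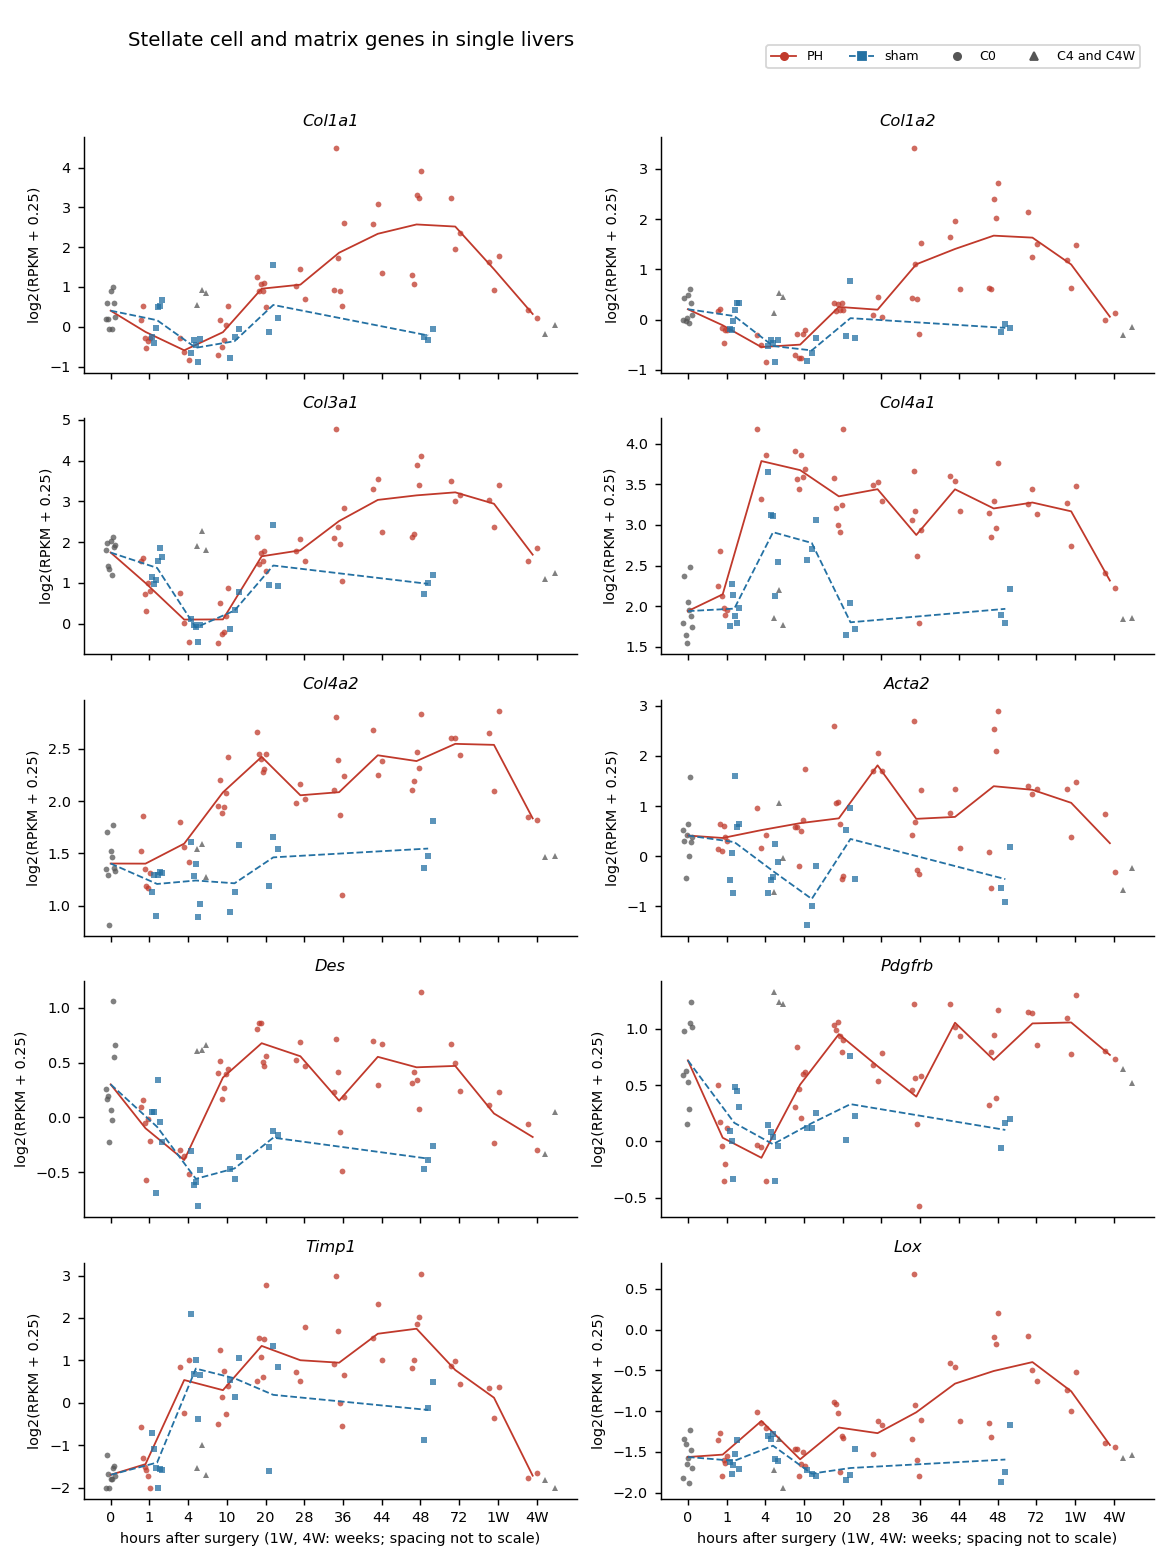
Each member's log2(RPKM + 0.25) in each liver against time after surgery (red, PH; blue squares, sham; grey, unoperated), with lines through group means. Group means of the fibrillar collagens are low at 4 and 10 h and, after PH, high from 36 to 72 h. Their single livers overlap C0 at 36 h, as do those of Col1a1 at 10 h and Col3a1 at 48 h. Col4a1 is raised from 4 h and Timp1 from 4 h in both PH and sham livers.

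Fibrillar collagens came first down, then up. At 4 h Col1a1 and Col3a1 were lower in both operated groups than in C0, and Col1a2 in S4 (−0.73, limma adjusted p = 0.025) but not past the threshold in X4 (−0.75, limma adjusted p = 0.057). Col3a1 RPKM was 1.43, 0.76 and 0.48 in the 3 livers of X4 and 0.84, 0.72, 0.69, 0.48 and 0.73 in the 5 livers of S4, whereas the 9 C0 livers ran from 2.05 to 4.11 with a median of 3.43. No operated liver reached the lowest C0 liver. The log2 difference from C0 was −1.64 (SE 0.38, limma adjusted p = 0.00017) in X4 and −1.84 (SE 0.32, limma adjusted p = 1e-06) in S4. Col1a1 was at 0.57, 0.39 and 0.31 in X4 and at 0.38, 0.55, 0.48, 0.29 and 0.56 in S4, all below the C0 livers (0.71 to 1.77). It fell by 1.00 in X4 (limma adjusted p = 0.047) and by 0.93 in S4 (limma adjusted p = 0.024) on the log2 scale. Between X4 and S4 themselves, Col3a1 differed by 0.20 and Col1a1 by −0.06, and neither was called. With libraries scaled to the same median the Col1a1 difference of X4 from C0 was −0.84 and no longer called (limma adjusted p = 0.088).

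The rise came after 28 h. Col1a1 RPKM was 5.73, 8.25 and 2.29 in X44, then 2.22, 1.87, 9.73, 9.15 and 14.8 in X48, and 9.19, 3.64 and 4.87 in X72. The 3 livers of S48 held 0.588, 0.545 and 0.705, so that every X48 liver was above every S48 liver, although the X48 livers themselves spread 7.93-fold. The log2 difference was 2.79 (SE 0.48, limma adjusted p = 2.4e-06), a fold of 6.91 on that scale. It was the largest difference of the 10 members.

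Col1a2, the partner chain of type I collagen, was at 1.29, 1.27, 5.0, 3.81 and 6.28 RPKM in X48 and at 0.60, 0.69 and 0.64 in S48. Col3a1, the type III chain, was at 4.10, 4.37, 14.7, 10.3 and 17.0 in X48 and at 1.40, 1.75 and 2.05 in S48. Neither gene's groups overlapped. The differences were 1.83 (SE 0.38, limma adjusted p = 5.9e-05) for Col1a2 and 2.17 (SE 0.41, limma adjusted p = 1.7e-05) for Col3a1. At 10 and 20 h the 3 fibrillar chains showed no called difference from sham: Col3a1, for example, differed by −0.22 at 10 h and by 0.23 at 20 h. In S20, replicate 2 stood above the others, with 2.66 RPKM of Col1a1 against 0.67 and 0.92, and 5.10 of Col3a1 against 1.68 and 1.64.

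The widening from 10 to 48 h was itself tested, as the PH to sham difference at 48 h minus that at 10 h. It was 2.56 for Col1a1 (limma adjusted p = 0.0025), 2.39 for Col3a1 (limma adjusted p = 0.0011), 2.19 for Timp1 (limma adjusted p = 0.017) and 1.72 for Col1a2 (limma adjusted p = 0.010). These 4 members were called and the other 6 were not, against 23.1% of all genes. With libraries scaled to the same median, 2 of the 10 were called, and without the replicates numbered 3, 1 was. X48 and S48 came from a different period than S10, so in this contrast time and period cannot be told apart.

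Type IV collagen followed another course. Col4a1 RPKM was already 17.8, 9.75 and 14.2 in X4 and 12.3, 8.44, 8.35, 4.12 and 5.59 in S4, against 2.66 to 5.32 in C0. The X4 livers all stood above C0, and those of S4 did so in 4 of 5. Col4a1 rose by 1.84 in X4 (SE 0.23, limma adjusted p = 6.1e-10) and by 0.97 in S4 (SE 0.20, limma adjusted p = 1.9e-05). X4 also stood above S4, by 0.87 (limma adjusted p = 0.012), the single member called at 4 h between PH and sham.

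In sham livers the level had returned by 20 h, with 2.88, 3.86 and 3.04 RPKM in S20. After PH it had not: the 6 livers of X10 held 10.6 to 14.7 with a median of 12.2, and those of X20 held 7.25 to 17.8 with a median of 9.07. The difference from sham was 0.90 at 10 h (limma adjusted p = 0.010), 1.55 at 20 h (limma adjusted p = 1.7e-05) and 1.23 at 48 h (SE 0.26, limma adjusted p = 6.5e-05). No PH liver overlapped a sham liver at these times.

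Col4a2, the second chain of the same collagen, did not follow at 4 h: its RPKM was 3.24, 2.70 and 2.42 in X4 and 2.81, 2.18, 2.40, 1.6 and 1.78 in S4, within or near the C0 range of 1.51 to 3.17. Its log2 difference from C0 was 0.19 in X4 and −0.16 in S4, neither called. It was higher in PH than in sham from 10 h on, by 0.87 at 10 h (limma adjusted p = 0.0013), 0.96 at 20 h (limma adjusted p = 0.00052) and 0.83 at 48 h (SE 0.20, limma adjusted p = 0.00046). The X48 livers held 4.05, 4.30, 5.30, 4.73 and 6.84 and the S48 livers 2.31, 2.53 and 3.25.

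The ratio of the 2 chains therefore shifted. The RPKM of Col4a1 over that of Col4a2 averaged 1.5 in C0 (livers from 1.30 to 1.76), 5.00 in X4 (3.61 to 5.87) and 3.49 in S4 (2.57 to 4.39). It was 3.19 in X10 (2.47 to 4.07), 3.2 in S10, 1.30 in S20, 2.03 in X20, 2.72 in X28, 1.82 in X48 and 1.37 in S48. The livers of X4, S4, X10, S10 and X28 were all above the highest C0 liver. Those of X44 were so only narrowly, with a lowest ratio of 1.763 against 1.758. The ratio was chosen after the values were seen and was not tested.

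**Figure D2:**
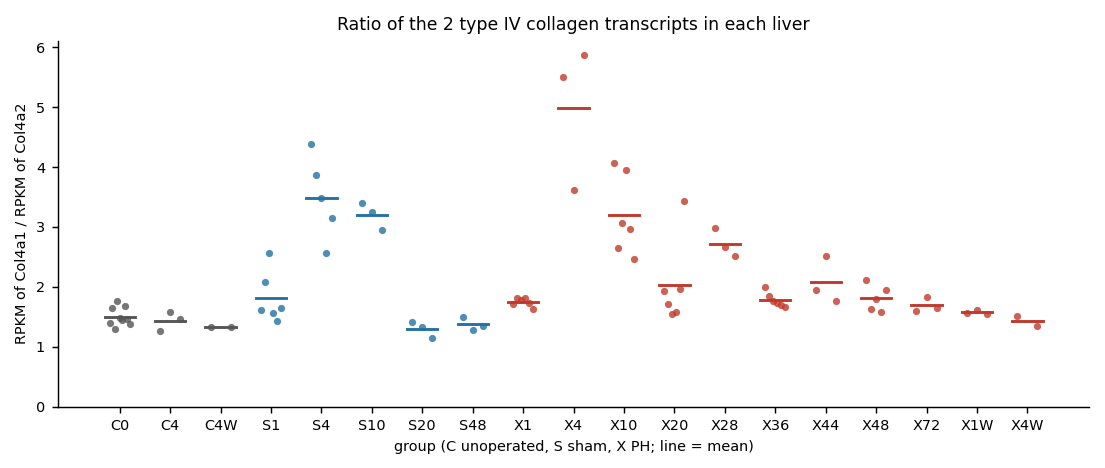
The ratio of Col4a1 RPKM to Col4a2 RPKM in each liver, by group. It is near 1.5 in resting livers, reaches 5.00 on average in X4 and 3.49 in S4, and is 1.37 in S48 and 1.82 in X48.

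Acta2, smooth muscle actin and the usual mark of myofibroblasts, was variable: RPKM in X48 was 0.80, 0.40, 5.55, 4.01 and 7.23, and in S48 0.39, 0.28 and 0.88. The 2 lowest X48 livers lay within the S48 range, so the groups overlapped. The difference was 1.85 (SE 0.56, limma adjusted p = 0.0053), and fitted on those groups alone it was not called (limma adjusted p = 0.13). At 10 h the X10 livers held 1.25, 1.25, 0.63, 1.17, 1.40 and 3.08 and the S10 livers 0.14, 0.25 and 0.62. All PH livers were above all sham livers, but the difference of 1.51 (SE 0.54) was not called (limma adjusted p = 0.057); with libraries scaled to the same median it was (limma adjusted p = 0.038). S10 was lower than C0 by 1.26 on the log2 scale (limma adjusted p = 0.036), and X28 was higher by 1.40 (limma adjusted p = 0.023), with 2.98, 3.88 and 2.99 RPKM.

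Des encodes desmin, an intermediate filament of stellate and muscle cells. It was at 0.99, 1.08, 1.02, 0.80 and 1.96 RPKM in X48 and at 0.47, 0.51 and 0.58 in S48, a difference of 0.83 (SE 0.20, limma adjusted p = 0.00048). At 10 h the X10 livers (0.87 to 1.18, median 1.07) were above those of S10 (0.47, 0.43 and 0.53), with a difference of 0.83 (limma adjusted p = 0.0021), and at 20 h it was 0.86 (limma adjusted p = 0.0017). Set against C0 (1.03 ± 0.38 RPKM), Des differed in S4 by −0.86, in S10 by −0.77 and in S48 by −0.68, all called lower. It was also called lower in X4 (−0.69, limma adjusted p = 0.00094), with all 3 livers below C0. In X10 (0.06) and X48 (0.16) it was not called.

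Pdgfrb (on chromosome 18), the receptor through which PDGF drives stellate cell division and migration, showed a like pattern. Its RPKM was 1.00, 1.48, 1.67, 1.06 and 1.99 in X48 and 0.71, 0.87 and 0.90 in S48, a difference of 0.62 (SE 0.21, limma adjusted p = 0.015). The call was lost without X48 replicate 5 (limma adjusted p = 0.058) or without S48 replicate 1 (limma adjusted p = 0.081). From C0 (1.44 ± 0.42), Pdgfrb differed by 0.00 in X48 and by −0.62 in S48, the second called (limma adjusted p = 0.022). At 4 h it was low in both operated groups, with 0.73, 0.71 and 0.53 in X4 and 0.535 to 0.852 in S4, against 2.26, 2.11 and 2.07 in unoperated livers of the same hour (C4). All operated livers were below all C4 livers, which were collected in another period. Of the 5 other PDGF ligand and receptor genes, all detected, 2 were called higher in X48 than S48: Pdgfra, the sister receptor, by 0.87 and the ligand Pdgfa by 0.72. Over all genes 24.5% were called higher, so 2 of 5 does not set this list apart.

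Timp1, which inhibits matrix metalloproteinases and is also an acute-phase gene, was the member furthest above rest, with a log2 difference of 3.44 between X48 and C0. From near 0 in C0 (0 to 0.174 RPKM) it was 1.56, 0.60 and 1.75 in X4 and 4.0, 1.36, 1.76, 0.51 and 1.32 in S4. Every operated liver at 4 h exceeded every C0 liver, with differences of 2.23 (SE 0.47, limma adjusted p = 5.1e-05) and 2.50 (SE 0.40, limma adjusted p = 1.6e-07). X4 and S4 differed by −0.27, not called. At 48 h Timp1 was 1.505, 1.76, 3.37, 3.80 and 8.01 in X48 and 0.29, 0.67 and 1.16 in S48, without overlap. The difference was 1.91 (SE 0.52, limma adjusted p = 0.0019), and S48 itself was still above C0 by 1.53 (limma adjusted p = 0.018). Because C0 values rested on at most 5 estimated reads, these folds depend on the added 0.25.

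Lox, on chromosome 18 as well, was the other scarce member, with 0.203, 0.151, 0.685, 0.631 and 0.898 RPKM in X48 (15 to 115 estimated reads) and 0.0248, 0.0488 and 0.194 in S48 (4 to 22). One X48 liver, replicate 2, was below the highest S48 liver. The difference was 1.09 (SE 0.27, limma adjusted p = 0.00068); fitted on those groups alone it missed the threshold (limma adjusted p = 0.058). In X72 the livers held 0.700, 0.459 and 0.398, all above C0 (0.0208 to 0.176), with a difference of 1.16 (limma adjusted p = 5.2e-05).

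Counted over the 10 members, PH against sham gave no call by limma at 1 h, where 0.65% of all genes were called, and 0 of 10 had an unadjusted p below 0.05. At 4 h 1 was higher (Col4a1), against 8.64% of all genes, at 10 h 3 were higher (Col4a1, Col4a2 and Des), against 7.02%, and at 20 h 4 (Pdgfrb joined them), against 7.11%. At 48 h all 10 were higher, while 27.2% of all genes were called and 24.5% were called higher. No member was called lower than sham at any of these 5 times. S10 and S20 came from 1 period, whereas X10 and X20 each pooled livers of 2 periods. At 10 and 20 h the PH and sham groups were therefore not balanced by period. Without the replicates numbered 1 the counts were 0 at 10 h and 1 at 20 h, without those numbered 2 the count was 1 at 10 h, and without those numbered 4 or 6 it was 0 at 4 h. The members' median log2 difference at 48 h was 1.53, and that of all genes was 0.27. With libraries scaled to the same median, which removes that shift, 7 members were called: Col1a1 at 2.34, Col3a1 at 1.72, Timp1 at 1.47, Acta2 at 1.41, Col1a2 at 1.39, Col4a1 at 0.79 and Lox at 0.64. Col4a2 (0.39), Des (0.38) and Pdgfrb (0.17) were then not called.

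**Figure D3:**
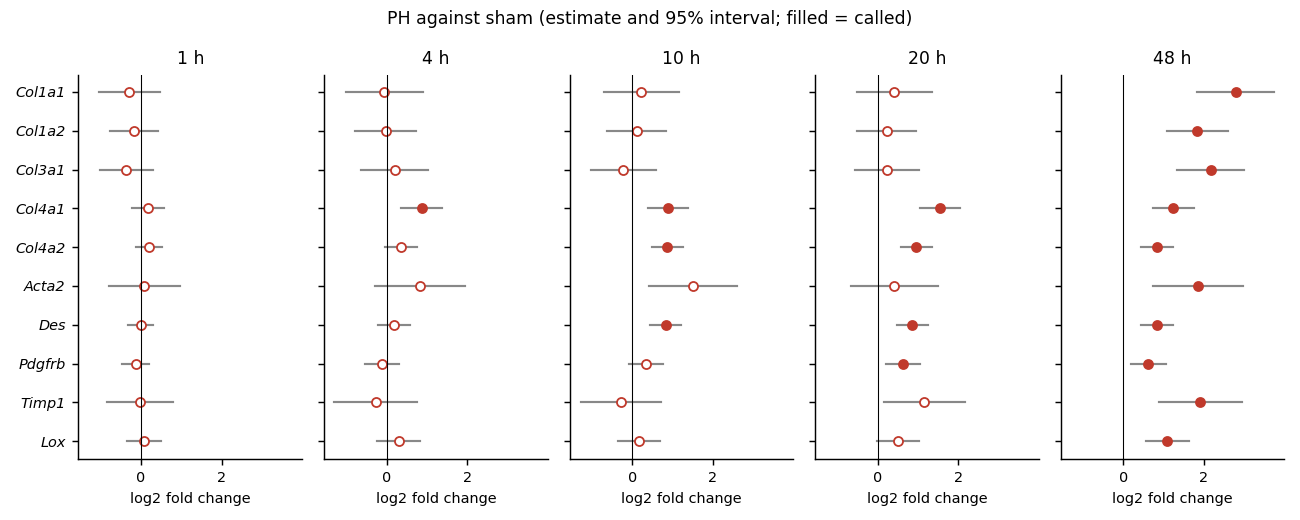
Log2 difference between PH and sham for each member at 5 times from 1 to 48 h, with 95% intervals; filled points were called. At 48 h all 10 points lie above 0, from 0.62 for Pdgfrb to 2.79 for Col1a1.

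Against C0, the post-PH groups share their control livers, so their counts are given side by side. X48 and X72 were taken at the hour of day of C0 (ZT2). The groups from X1 to X44 were taken at other hours, some of them in the dark feeding phase. For these, surgery cannot be told apart from hour of day and feeding. In X1, 2 members were lower (Col3a1 and Pdgfrb), against 13.5% of all genes called. In X4, 2 were higher and 4 lower, against 38.2%. In X10, 3 were higher (Col4a1, Col4a2 and Timp1) and 2 lower (Col1a2 and Col3a1), against 36.4%. In X20 3 were higher and none lower (24.1% of all genes), and in X28 4 were higher (24.9%), Acta2 among them. The counts at 36, 44, 48 and 72 h were 7, 7, 8 and 7 higher and none lower, where 35%, 39.2%, 38.1% and 33.2% of all genes were called in either direction. The median shift of all genes from C0 was 0.24 at 48 h and −0.20 at 4 h. Col1a1, Col1a2, Col3a1, Col4a1, Col4a2, Timp1 and Lox were called at all 4 of these late times, Acta2 at 48 h alone, and Des and Pdgfrb at none. Between X72 and X48 limma called 0 of 10 (and 0 of 10 at an unadjusted p below 0.05), against 5.96% of all genes. Timp1, at −0.97, was the furthest apart.

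Over the 5 sham groups 6 differences from C0 were called higher and 13 lower, of 50. The groups from S1 to S20 also differed from C0 in hour of day. Without the replicates numbered 1 or 3 the total of 19 was 12. In S1, 1 member was lower (Pdgfrb), against 7.77% of all genes. In S4, Col4a1 and Timp1 were higher and 5 members lower, against 34.4%, and in S10 the count was again 2 higher and 5 lower, against 29.1%. In S20 Timp1 alone was called, higher, against 12.1%, and in S48 Timp1 was higher and Des and Pdgfrb lower, against 8.88%. Set against C4, which shares the hour of day of the 4 h groups, S4 had 2 higher and 5 lower (43.3% of all genes called) and X4 2 higher and 4 lower (45.6%). C4 livers were collected in another period than S4 and X4, so in these comparisons surgery and period cannot be told apart.

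At 1 week 6 members were still above C0 (Col1a2, Col3a1, Col4a1, Col4a2, Timp1 and Lox), all without overlap, where 16.9% of all genes were called. How many of all genes were likewise without overlap was not counted. The X1W livers came from 1 period, and C0 pooled livers of several. Col3a1 was at 7.97, 4.96 and 10.3 RPKM and Col4a2 at 6.04, 4.01 and 7.03, with differences of 1.2 (limma adjusted p = 0.011) and 1.13 (limma adjusted p = 2.1e-06). Col1a1 was higher by 1.04 and was not called (limma adjusted p = 0.058). The count fell to 3 without the replicates numbered 1 or those numbered 3, and to 3 with C0 replicates 1 to 3 as the control. At 4 weeks, limma called 0 of 10 against C0 (5.62% of all genes called) and 0 of 10 against C4W (0.065%). At an unadjusted p below 0.05 there were 2 against C0, Des (−0.48) and Col4a2 (0.43), and 0 against C4W. With 2 livers a group, 8 members were higher in both X4W livers than in both C4W livers, with a median difference of 0.32. How many of all genes were placed likewise was not counted, and several members ran together across groups, so no lasting rise is inferred. Timp1 was at 0.0412 and 0.0691 RPKM in X4W and at 0.0348 and 0 in C4W.

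Livers of 1 group differed widely for these genes at 36 and 48 h. In X36, Col1a1 RPKM was 1.64, 22.4, 3.04, 1.61, 1.18 and 5.89, an 18.96-fold spread, where the C0 livers spread 2.48-fold. Replicate 2 was the highest X36 liver for 10 of 10 members and replicate 5 the lowest for 10 of 10. How often these livers held such places over all genes was not counted, and several members ran together across groups. In X48, replicate 5 was the highest for 10 of 10, and replicates 1 and 2 were the lowest for 4 and 5. The X48 sums over the 10 members were 24.8 and 23.7 RPKM in replicates 1 and 2. They were 56.5, 45.8 and 78.3 in replicates 3 to 5. The fibrillar collagens, Acta2, Timp1 and Lox divided these livers likewise, but Des and Pdgfrb did not. Which X48 livers were operated on together was not given, and the division was not tested. The members that spread most in X36 were Lox (36.5-fold), Col1a1 and Col1a2 (18.4-fold), and those that spread least were Des (2.99-fold) and Col4a2 (3.53-fold).

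**Figure D4:**
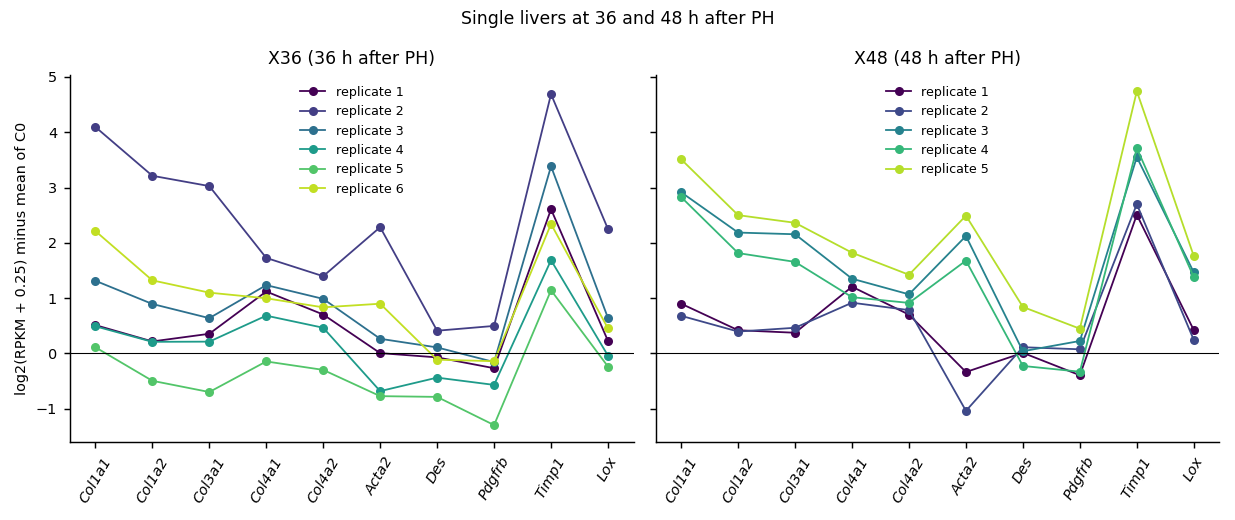
Each member in each X36 and X48 liver, as its log2(RPKM + 0.25) minus the C0 mean. Replicate 2 is the top X36 liver and replicate 5 the top X48 liver for all 10 members.

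Without X36 replicate 2, 3 of the 7 calls against C0 were lost: Col1a2 (0.43, limma adjusted p = 0.11), Col3a1 (0.32, limma adjusted p = 0.32) and Lox (0.21, limma adjusted p = 0.27). Col1a1 (0.93), Col4a1 (0.78), Col4a2 (0.54) and Timp1 (2.23) were still called. Other matrix and cell type lists moved with these livers: of 16 other lists, X36 replicate 2 had the highest summed RPKM in 11 and replicate 5 the lowest in 9. The hepatocyte list was among the 11. So was the mesothelial list, in which replicate 3 was highest once the keratin Krt8 was left out. Over the X36 livers the lowest, median and highest sums were 25.0, 37.1 and 51.1 for resting stellate markers, 19.7, 32.3 and 57.2 for contractile genes and 1.99, 5.06 and 11.3 for portal fibroblast markers. They were 6.55, 19.9 and 29.2 for sinusoidal endothelial and 7.77, 38.5 and 68.7 for Kupffer cell markers. The sums over the 10 members were 10.6, 27.2 and 97.8. Their part in the result was not tested. Skeletal muscle markers summed to at most 1.04.

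Other matrix genes were also higher at 48 h after PH than after sham. Of 10 detected interstitial collagen genes outside the members, 7 were called higher, with a median difference of 0.93. Col5a2, which takes part in fibrils with types I and III, was at 1.16 RPKM in X48 and 0.257 in S48 (1.44), followed by its partner Col5a1 (1.36) and Col6a1 (1.11), a chain of beaded microfibrils. Of 19 genes that modify and cross-link collagen, 10 were higher, with a median of 0.56. Serpinh1, the chaperone of procollagen, was at 10.7 against 3.15 RPKM (1.62). The oxidase Loxl2 was higher by 1.55 and the prolyl hydroxylase Lepre1 by 1.30.

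Of 14 basement membrane genes 4 were called higher (median 0.38), led by Nid1 (nidogen), at 7.35 against 1.69 RPKM (1.94), then the laminin chains Lamb3 (0.95) and Lamc1 (0.88). Of 19 other matrix proteins 10 were higher (median 0.60), among them Sparc (20.8 against 8.99 RPKM; 1.16), Lum (0.92) and Tgfbi (0.67). Of 18 proteases and inhibitors 8 were higher (median 0.39), among them the metalloproteinases Mmp2 (0.81), Mmp14 (0.71) and Mmp19 (0.62). All genes together had a median of 0.27 and 24.5% called higher, so the basement membrane list was close to the background.

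Of 10 contractile and myofibroblast genes 7 were higher, with a median of 1.23: Smtn (smoothelin) was at 4.87 against 0.579 RPKM (2.61), Tagln (transgelin) differed by 1.72 and Vim (vimentin) by 1.29. The list of 13 resting stellate markers had 4 higher (median 0.33), among them Ngfr, a neurotrophin receptor, by 0.86 and Cygb, the globin cytoglobin, by 0.66. With 24.5% of all genes called higher and a median of 0.27, this list was close to the background. Sinusoidal endothelial markers had none higher and 1 lower of 9 (Oit3, −0.74; list median −0.44), and Kupffer cell markers had 0 called by limma of 7, also 0 at an unadjusted p below 0.05 (median −0.37). Portal fibroblast markers had 1 higher of 6 (Smoc2, 0.92; median 0.28), and the mesothelial list 1 of 7 (Krt8, 1.13, a keratin that hepatocytes express as well; median −0.02). Hepatocyte markers had 3 lower of 9, Tat (−1.01), Cyp2e1 (−0.84) and Ttr (−0.68), with a median of −0.30. Of 5 cholangiocyte, 7 neutrophil and 1 skeletal muscle markers detected, limma called 0, and 2, 0 and 0 had an unadjusted p below 0.05, namely Krt19 (0.72) and Krt7 (0.42).

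**Figure D5:**
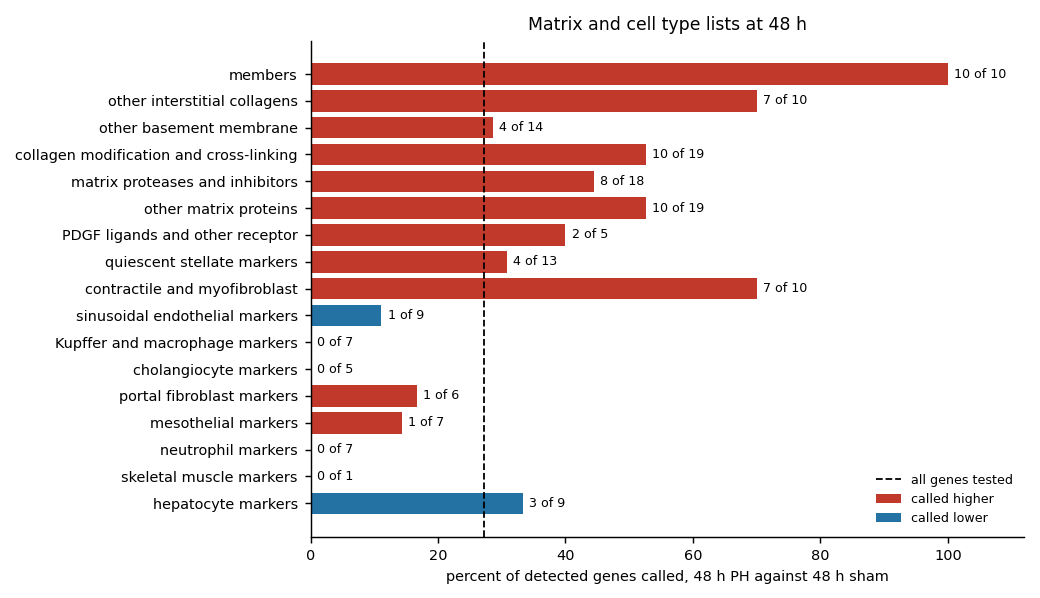
Percent of the detected genes of each list that limma called in X48 against S48; the dashed line is the 27.2% of all genes. The members, the contractile genes and the other interstitial collagens are the longest bars, with 10 of 10, 7 of 10 and 7 of 10 genes called.

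At 4 h the lists differed in direction from C0, where 38.2% of all genes were called in X4 and 34.4% in S4, in either direction. In X4, 7 of 10 other interstitial collagens, 8 of 19 collagen-modifying genes and 6 of 13 resting stellate markers were lower and none was higher, and Serpinh1 differed by −1.14. The shares of all genes count both directions, and the share called lower alone is not given. These counts are therefore not read as setting the lists apart. Other matrix proteins had 10 lower and 2 higher of 19 in X4, and proteases and inhibitors had 6 lower and 7 higher of 18. In S4, 8 of the 10 collagens and 7 of the 13 stellate markers were lower, as were 6 of the 10 contractile genes. At 10 h against sham, 3 of 10 contractile genes were called higher and none lower, with a list median of 0.25, where 7.02% of all genes were called. They were Tagln, at 5.92 against 0.852 RPKM (2.46), Myl9 (1.78) and Tpm1 (0.98). Nid1 differed by 1.77.

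The genes whose group means ran most like a member's were found by Pearson correlation over the 19 groups, among 11561 genes. Col1a1 was closest to Col5a2 (r = 0.98), Col1a2 (0.98) and Idh2 (0.96), and Col3a1 to Col6a3 (0.98), Col5a1 (0.98) and Idh2 (0.97). For Col1a2 these were Col1a1, Idh2 (0.97) and Col3a1 (0.96). Acta2 was closest to Tagln (0.94), Myl9 (0.92) and Rcn1 (0.85). Timp1 was closest to Hpx (0.94), C4bp (0.94) and Orm1 (0.94), plasma proteins of the acute phase or complement control. Col4a1 (Rabl3, Lars and Mmadhc, 0.90 to 0.92) and Col4a2 (Tnfrsf11b, C1qtnf6 and Cd36, 0.93 to 0.96) had no neighbour in common. For Des they were Ccz1, Ehd2 and Serpinh1 (0.88 to 0.89), for Pdgfrb Ddah2, Mxra7 and Bnip1 (0.91 to 0.93), and for Lox Actr2, D17H6S56E-5 and Ckap2 (0.90 to 0.91).

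Among the members, Col1a1 followed Col1a2 (0.98) and Col3a1 (0.94), Col4a1 followed Col4a2 less (0.66), and Col4a1 with Col3a1 (0.09) and Timp1 with Pdgfrb (0.07) were near 0. Groups share hours of day and a common control, and each correlation is a description over 19 group means. Ordered by group mean, neighbouring groups overlapped in their livers in 16 to 18 of 18 neighbouring pairs for every member, so the order of adjacent groups is not resolved.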

How the data were processed

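Poly(A) RNA of single livers was sequenced with a stranded kit and no spike-in. Per the study's methods and the submitters' processing notes the authors trimmed reads (Cutadapt, prinseq-lite), aligned them to mm9 with TopHat2 2.0.13 and Bowtie2, used SAMtools 0.1.19, and counted strand-specific reads per Ensembl gene with featureCounts, with multi-mapped reads split among their places. The deposited values are log2 RPKM, with 0 reads set to −14.29. Counts were not used here, so edgeR, the authors' test, was replaced by limma 3.58.1 (R 4.3.3) on log2(RPKM + 0.25). One model held 19 groups with trend, for 15396 genes above −1.5 log2 RPKM in at least 1 library. Of 84 value columns, 80 were used; 4 matched no labelled sample. Of 87 labelled samples, 7 (3 X4, 3 X60, 1 X4W) were not analysed here. Replicate numbers are not tied to a surgical period in the sources used here, and p-values measure the spread between livers. Depth was 12.2 to 49.0 M estimated reads (median 26.8), so scarce genes (Timp1, Lox) are the least precise. Genes named are the 10 members, up to 3 higher and 3 lower per other list at 48 h (group mean log2 RPKM above 0 in either group), and the 3 genes most correlated with each member. One item that this rule names is not reported here. Members and lists were chosen with earlier results of these data known. Alternatives were other pseudocounts (0.1, 1), filters, scaling, no trend, a replicate block, fewer groups or controls, and leaving out replicates. Scripts used Python 3.11.15, numpy 2.4.6, pandas 2.3.3 and matplotlib 3.10.9, and the fit was tested on simulated data.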

Additional observations from a re-analysis of the deposited data

Results flagged for a closer look

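Among 80 pairs of a member and a group of 4 to 10 livers, 3 had a liver far from the others, where chance gives about 4. Lox in X36 replicate 2 was the highest of 6, at 1.36 RPKM. Col1a2 in S4 replicate 4 was the lowest of 5, at 0.308 RPKM, and Col4a2 in C0 replicate 4 was the lowest of 9, at 1.51 RPKM.

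The difference between PH and sham changed from 10 to 48 h, by a contrast in the limma model, for 4 of the 10 members. The log2 change was 2.56 for Col1a1, 2.39 for Col3a1, 2.19 for Timp1 and 1.72 for Col1a2. Of all genes 23.1% were called for the same contrast, in which time and period cannot be told apart.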

How the results depend on the processing

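The call of all 10 members in X48 against S48 was 7 to 10 under the alternatives, and the total of 55 of 110 calls of post-PH groups against C0 was 44 to 56. Directions of single members were followed for X4, X10, X20 and X48 against sham and for X4, X10, X36, X48 and X1W against C0. In these comparisons no called member changed direction under the alternatives run for them. For the other comparisons only counts were kept. For C4 against C0 (1 call), the count was 0 with a pseudocount of 0.1 or 1, without a filter, with libraries scaled to the same median, with only the groups compared, and with C0 replicates 1 to 3 or 7 to 9 as control, and 2 with C0 replicates 4 to 6. For sham against C0 (19 calls of 50), it was 7 with a pseudocount of 1, 12 with C0 replicates 1 to 3 and 7 with C0 replicates 4 to 6. For X4 against S4 (1 call) it was 0 with only the groups compared. For X20 against S20 (4 calls) it was 2 with PH replicates 4 to 6. For X1W against C0 (6 calls) it was 3 with C0 replicates 1 to 3, and for the change of the PH to sham difference from 10 to 48 h (4 calls) it was 2 with libraries scaled to the same median. The cause was not tested.

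Leaving out each replicate number in turn gave 0 to 1 for X4 against S4, 0 to 3 for X10 against S10, 1 to 4 for X20 against S20, 9 to 10 for X48 against S48, 46 to 55 for post-PH groups, 12 to 20 for sham groups, 0 to 1 for C4, 3 to 7 for X1W and 1 to 5 for the change from 10 to 48 h. Without X36 replicate 2, chosen after seeing the data, post-PH calls were 54.

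Replicate numbers were not taken as pairs. Deviations of same-numbered PH and sham livers correlated at −0.19 to 0.27, which in groups this small cannot exclude shared structure. With the replicate block the sham count was 11 in place of 19, and the count of X48 against S48 stayed 10. Over all genes the block gave 4305 calls at 48 h in place of 4187, and 1465 at 10 h in place of 1081. Depth limits Timp1 and Lox most, whose resting values rest on at most 5 and 22 estimated reads a library.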
